A study of Mus musculus with 2 samples.

Results

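Aminoacyl-tRNA synthetases join each amino acid to its tRNA, and 39 genes of this machinery were followed among the 27998 genes counted in both libraries. They were listed by symbol, by a rule that uses no measured value, although earlier results of these data were known when the list was made: 20 synthetases of the cytosol, 16 synthetases of the mitochondrion (symbols ending in 2) and 3 scaffold genes, Aimp1, Aimp2 and Eef1e1, whose proteins hold a set of cytosolic synthetases together in the multisynthetase complex. RNA was counted in single cells from the marrow of 3-month-old mice, sorted as LSK (Lin- Sca-1+ c-Kit+) cells, the fraction that contains haematopoietic stem and progenitor cells. There was 1 library of Trmt6 WT cells and 1 library of Trmt6 cKO cells. The protein of Trmt6 is the partner subunit of the tRNA m1A writer, and the comparison asks how the genes that charge tRNA stand when Trmt6 is lost. The labels give the WT genotype as Trmt6fl/fl and the cKO genotype as Trmt6fl/fl, MX1-cre, a recombinase under the interferon-inducible Mx1 promoter. The study instead describes mice of both genotypes with Mx1-Cre and with pIpC injections, and for this experiment names Trmt6+/+ Mx1-Cre beside Trmt6fl/fl Mx1-Cre. Its methods name Trmt6fl/+ Mx1-Cre as the other product of the cross, without calling those mice controls. Which floxed alleles the WT cells carried is therefore not settled, and neither source says how many mice were pooled. Genotype and library cannot be told apart, the recombinase goes with them if the labels are right, and none of the differences below has a replicate check.

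Each synthetase recognises 1 amino acid and the tRNAs that read its codons, activates the amino acid with ATP and transfers it to the end of the tRNA. Mammalian cells run this reaction in the cytosol and again inside mitochondria, mostly with separate nuclear genes for each compartment, whereas Gars and Kars supply both compartments from 1 gene. Many cytosolic synthetase genes are known targets of ATF4, the transcription factor of the integrated stress response, which is engaged by amino acid shortage and other stresses.

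Levels are CPM, the UMIs (unique molecular identifiers, 1 per captured RNA molecule) of a gene per 1000000 UMIs, summed over the kept cells of a library. Ratios are log2 cKO over WT, and every interval given is a 95% interval for counting error alone. With 1 library per genotype no test was possible, and a fold of 1.5 stood in for one: a gene was called higher or lower past that fold, and within it where its whole interval lay inside the limit. After filtering, 8145 WT and 8481 cKO cells were kept, with median depths of 4178 and 10070 UMIs per cell, and 24 barcodes occurred in both libraries. Trmt6 itself was found at 63.4 CPM in WT against 50.4 CPM in cKO (log2 -0.33, -0.40 to -0.26), and counting from the 3′ end does not show whether the floxed exon was removed. The libraries also differed in their markers of lineage. The summed level of 7 granulocyte-monocyte markers was 6633 CPM in WT against 740 CPM in cKO, that of 6 neutrophil markers 5907 and 7.88 CPM, that of 7 lymphoid primed markers 549 and 156 CPM, that of 8 stem cell markers 180 and 249 CPM, and that of 6 B or plasma cell markers 67.0 and 496 CPM, of which Jchain alone made up 0.26 and 421 CPM. For this reason each group of members is also given within cells of 1 marker class.

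The cytosolic synthetases had higher ratios, as a median and as a sum, than the mitochondrial synthetases and the scaffold genes. Of the 20 cytosolic genes, 12 were higher in the cKO library and none was lower, against 6.86% higher and 13.9% lower among the 9145 genes that reached 5 CPM in WT or cKO. Their median log2 ratio was 1.11, with a range from -0.04 to 1.92, whereas the median of all 9145 genes was -0.07. Summed over the group, cytosolic synthetase RNA made up 1163 CPM in WT against 2241 CPM in cKO, a ratio of 1.93-fold (log2 0.95, 0.93 to 0.96). The 16 mitochondrial synthetases showed no member past the limit in either direction, a median of 0.05 and a range from -0.24 to 0.58. Their sum was 238 CPM in WT against 268 CPM in cKO (log2 0.17, 0.14 to 0.20). The 3 scaffold genes lay between these groups, with a median of 0.50 and a sum of 245 CPM in WT against 327 CPM in cKO (log2 0.41, 0.38 to 0.45). All 39 members passed the minimum of 5 CPM.

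**Figure D1:**
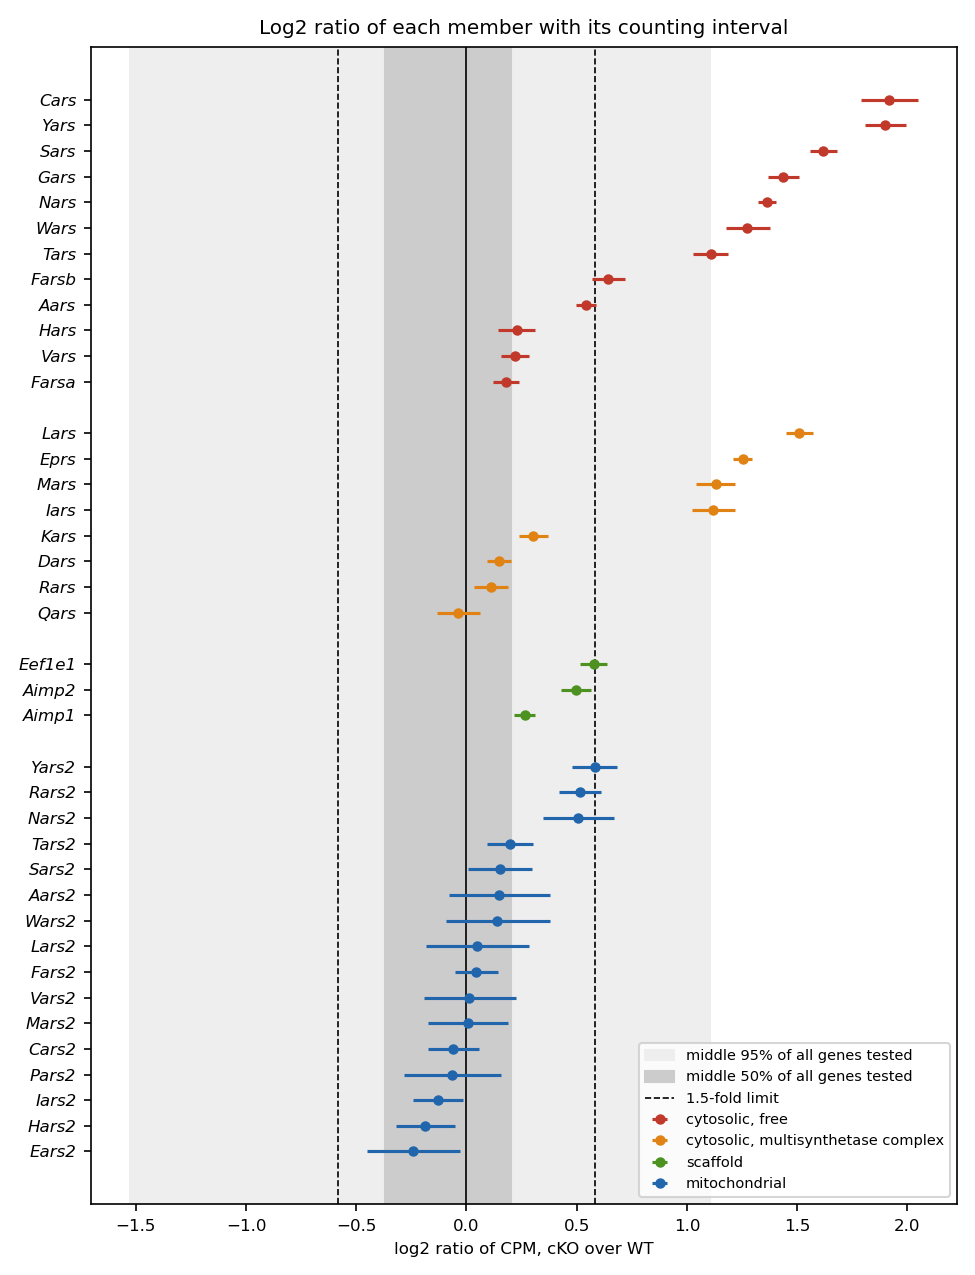
The horizontal axis gives the log2 ratio of CPM, cKO over WT, for each of the 39 members, with bars for the 95% counting interval, grey bands for the middle 50% and 95% of all 9145 genes and dashed lines at 1.5-fold. The 12 cytosolic genes past the right-hand line run from Farsb at 0.64 to Cars at 1.92, and the mitochondrial genes end at Yars2 at 0.58.

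The 5 highest ratios belonged to Cars, Yars, Sars, Lars and Gars, the cytosolic enzymes for cysteine, tyrosine, serine, leucine and glycine. Cars (ENSMUSG00000010755, chr7:143557230-143600090, minus strand, GRCm38) was at 13.5 CPM in WT (12.4 to 14.6) and 50.9 CPM in cKO (49.4 to 52.4), a log2 ratio of 1.92 (1.79 to 2.05). Yars (ENSMUSG00000028811, chr4:129189760-129219607, plus strand) was at 24.7 CPM in WT (23.3 to 26.3) and 92.2 CPM in cKO (90.2 to 94.3), a log2 ratio of 1.90 (1.81 to 1.99). These genes were thus 3.77-fold and 3.73-fold higher in the cKO library, and 99.1% of all tested genes had a lower ratio than either.

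Sars (chr3:108424865-108445209, minus strand) was at 62.1 CPM in WT (59.7 to 64.5) and 191 CPM in cKO (188 to 194), a log2 ratio of 1.62 (1.56 to 1.68). Lars, whose protein is also known as a leucine sensor for mTORC1, was at 57.0 CPM in WT (54.7 to 59.3) and 162 CPM in cKO (160 to 165), a log2 ratio of 1.51 (1.45 to 1.57). Gars (chr6:55038007-55079500, plus strand) was at 45.5 CPM in WT (43.5 to 47.6) and 123 CPM in cKO (121 to 125), a log2 ratio of 1.44 (1.37 to 1.51). The counting intervals of the libraries did not overlap for any of these 5 genes.

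A further 6 genes were past 2-fold, so that 11 of 20 cytosolic synthetases reached it, against 2.94% of all tested genes. They were Nars for asparagine (137 and 353 CPM in WT and cKO, log2 1.36), Wars for tryptophan (23.3 and 56.4 CPM, 1.27), Eprs, the fused enzyme for glutamate and proline (122 and 291 CPM, 1.25), Mars for methionine (30.2 and 66.0 CPM, 1.13), Iars for isoleucine (25.4 and 55.3 CPM, 1.12) and Tars for threonine (37.8 and 81.4 CPM, 1.11). The twelfth gene past 1.5-fold was Farsb, the beta subunit of phenylalanyl-tRNA synthetase, with 43.6 CPM in WT against 68.0 CPM in cKO. Its interval (log2 0.64, 0.57 to 0.72) reached just inside the limit of 0.58.

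**Figure D2:**
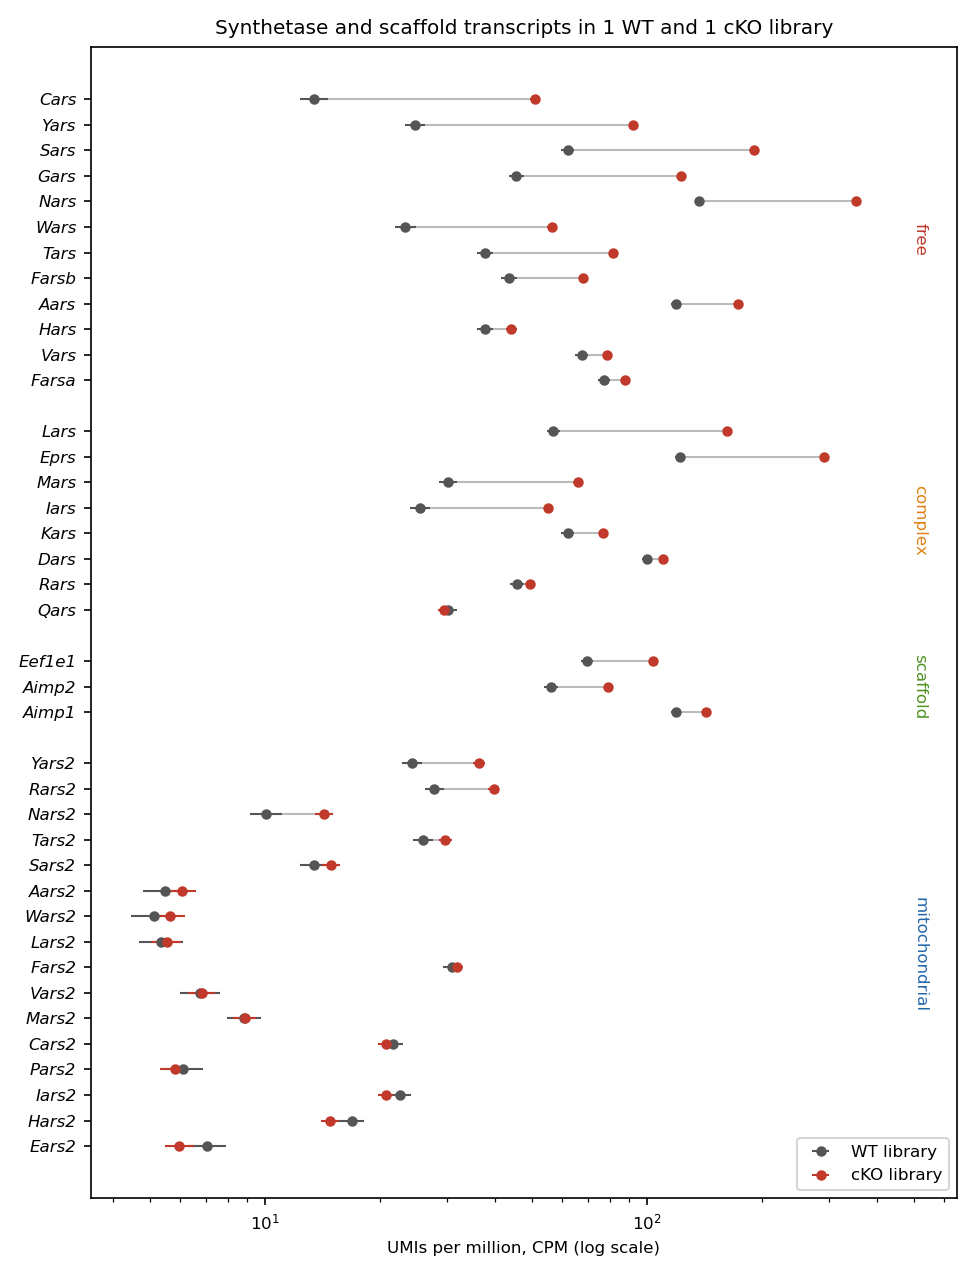
Each row gives the level of 1 member in CPM on a log axis, in grey for the WT library and in red for the cKO library, with bars for the 95% Poisson interval. Nars moves from 137 to 353 CPM and Cars from 13.5 to 50.9 CPM, while most mitochondrial genes, all between 5.13 and 30.9 CPM in WT, have both points side by side.

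Among the cytosolic synthetases, 7 stayed within 1.5-fold with their whole interval: Kars, Hars, Vars, Farsa, Dars, Rars and Qars, the enzymes for lysine, histidine, valine, phenylalanine (alpha subunit), aspartate, arginine and glutamine. Qars was at 30.2 CPM in WT against 29.4 CPM in cKO, and it was the only cytosolic synthetase whose interval spanned 0 (log2 -0.04, -0.13 to 0.06). Rars was at 45.8 and 49.4 CPM (log2 0.11, 0.03 to 0.19) and Dars at 99.95 and 111 CPM (0.15, 0.09 to 0.20). The other 4 genes of this set had log2 ratios from 0.18 (Farsa) to 0.30 (Kars, 1.23-fold). Most of all tested genes were likewise not past the limit (6.86% were higher and 13.9% lower). The subunits of phenylalanyl-tRNA synthetase, which work as a tetramer of alpha and beta chains, did not have the same ratio: Farsa (77.2 and 87.5 CPM) had a log2 ratio of 0.18 (0.12 to 0.24), and its interval did not overlap that of Farsb.

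Aars, the alanine enzyme, was undecided. It was at 119 CPM in WT against 174 CPM in cKO, and its interval (log2 0.54, 0.50 to 0.59) crossed the limit. Of the sequence windows in the 3′ part of its transcripts, 50% were shared with Exosc6, an overlapping gene that is not among the counted features, so the Aars counts are uncertain. For Iars, 12.8% of these windows were shared with the processed pseudogene Gm4849, which is not counted either.

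The promoters of the synthetases were searched for TGATGNAA, the core of the C/EBP-ATF composite elements at which ATF4 is known to bind. Both strands were read over 300 bases, from 250 before to 50 after the RefSeq start of transcription (GRCm38.p6), and a promoter was matched for 30 of the 39 members. No promoter was matched for Cars, Hars, Lars, Nars, Rars, Vars, Wars, Hars2 and Pars2. The core was present in 5 of the 30 (16.7%) and, counted per gene in the same way, in 4.51% of 27025 mouse genes with a promoter of this length. The windows are shown because every match lay in a cytosolic gene. There is 1 window per gene, 30 bases long, on the strand of the gene and from 5′ to 3′, with the match in capitals (TTGCATCA and TTTCATCA are matches on the opposite strand). Windows lie at chr4:129189895-129189924 for Yars, chr6:55037960-55037989 for Gars, chr13:49682126-49682155 for Iars, chr15:11399655-11399684 (minus strand) for Tars, and chr8:111033840-111033869 for Aars:
Yars: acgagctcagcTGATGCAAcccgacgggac
Gars: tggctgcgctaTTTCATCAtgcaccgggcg
Iars: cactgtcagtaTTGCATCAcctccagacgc
Tars: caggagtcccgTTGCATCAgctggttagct
Aars: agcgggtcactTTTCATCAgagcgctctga

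The first base of the match in each window stood at position 4 in Yars, -30 in Gars, 8 in Iars, -15 in Tars and 10 in Aars, where position 1 is the first transcribed base and no position 0 is used. The Aars promoter held 2 matches, and 1 of them is shown. Among the cytosolic genes past 1.5-fold the core was found in 4 of the 8 with a promoter (Yars, Gars, Iars and Tars), and among the other cytosolic genes in 1 of 5 (Aars). It was found in none of the 14 mitochondrial genes and none of the 3 scaffold genes with a promoter. At the 4.51% share of all genes, sets this small would hold few matches, so this absence does not set them apart. In Mars, Sars, Eprs and Farsb, also past the limit, these letters were not in the window. In the list of 20 integrated stress response genes described below, 7 of 19 promoters held it (36.8%). A match of this kind is a description of the sequence and was not tested for binding.

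The cytosolic synthetases were divided by where and how their enzymes work. The 8 synthetases of the multisynthetase complex split evenly: Lars, Eprs, Mars and Iars were past 2-fold, and Kars, Dars, Rars and Qars were within 1.5-fold, with no member between 0.30 and 1.12 on the log2 scale. Their median was 0.71 and their sum was 473 CPM in WT against 841 CPM in cKO. The 12 synthetases outside the complex had 8 members past 1.5-fold (6.86% of all tested genes were), a median of 1.19 and a sum of 690 CPM in WT against 1400.0 CPM in cKO. By the 2 catalytic folds of the family, 7 of 10 class I enzymes (median 1.19) and 5 of 10 class II enzymes (median 0.59) were past 1.5-fold, beside the same 6.86%, with Eprs, which carries a domain of each, counted in class I.

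The scaffold genes did not follow the 4 higher members of their complex. Aimp1, which encodes the scaffold protein AIMP1 (also known as p43), was at 119 CPM in WT (116 to 123) and 143 CPM in cKO (141 to 146), a log2 ratio of 0.26 (0.22 to 0.31). Aimp2 was at 56.2 CPM in WT (54.0 to 58.5) and 79.3 CPM in cKO (77.5 to 81.2), a log2 ratio of 0.50 (0.43 to 0.56). Eef1e1, which encodes the component AIMP3, was at 69.8 CPM in WT (67.3 to 72.4) and 104 CPM in cKO (102 to 106), and its interval (log2 0.58, 0.52 to 0.64) crossed the limit. All 3 intervals lay above 0 and below those of Lars, Eprs, Mars and Iars.

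The mitochondrial synthetases charge the tRNAs encoded by mitochondrial DNA. Of the 16 genes, 13 lay within 1.5-fold with their whole interval and 3 were undecided: Yars2 (24.3 and 36.3 CPM in WT and cKO, log2 0.58, 0.48 to 0.68), Rars2 (27.8 and 39.7 CPM, 0.51, 0.42 to 0.61) and Nars2 (10.1 and 14.3 CPM, 0.51, 0.35 to 0.67). For 8 genes the interval spanned 0, and these were Aars2, Wars2, Lars2, Fars2, Vars2, Mars2, Cars2 and Pars2, with log2 ratios from -0.07 to 0.15. Sars2 and Tars2 were slightly above 0, at 0.15 and 0.20. Most genes were not past the limit either, since 6.86% of all 9145 tested genes were higher and 13.9% lower.

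The 5 lowest ratios of all members were mitochondrial. Ears2, the glutamate enzyme, was at 7.06 CPM in WT (6.28 to 7.91) and 5.97 CPM in cKO (5.47 to 6.51), a log2 ratio of -0.24 (-0.45 to -0.03). Hars2 was at 16.9 CPM in WT (15.7 to 18.2) and 14.8 CPM in cKO (14.03 to 15.7), a log2 ratio of -0.19 (-0.32 to -0.05). Iars2 was at 22.6 CPM in WT (21.2 to 24.1) and 20.7 CPM in cKO (19.8 to 21.7), a log2 ratio of -0.13 (-0.24 to -0.01). These 3 were the members whose interval lay below 0. Pars2 was at 6.08 CPM in WT (5.36 to 6.87) and 5.81 CPM in cKO (5.32 to 6.34), a log2 ratio of -0.07 (-0.29 to 0.16), and Cars2 was at 21.6 CPM in WT (20.2 to 23.0) and 20.7 CPM in cKO (19.8 to 21.7), a log2 ratio of -0.06 (-0.18 to 0.06). Cars2 is the counterpart of Cars, the highest of all members.

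For 16 mitochondrial genes a cytosolic enzyme for the same amino acid could be set beside it, with Eprs taken for both Ears2 and Pars2 and Farsa for Fars2. The cytosolic ratio was the higher one in 15 of 16 pairs, and the median difference was 1.13 on the log2 scale. The difference was widest for cysteine, with 1.92 for Cars and -0.06 for Cars2. For tyrosine and asparagine both genes had ratios above 0, with 1.90 for Yars and 0.58 for Yars2, and with 1.36 for Nars and 0.51 for Nars2. Arginine was the exception, since Rars2 (0.51, 0.42 to 0.61) stood above Rars (0.11, 0.03 to 0.19). For phenylalanine (Farsa and Fars2) and valine neither gene reached 0.30, and the pair members differed by 0.14 and 0.20. In both of these pairs the intervals of the genes overlapped, so their order is not settled. The alanine pair rests on the uncertain Aars counts. The phenylalanine value rests on the alpha subunit, and Farsb, the beta subunit, stood at 0.64.

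**Figure D3:**
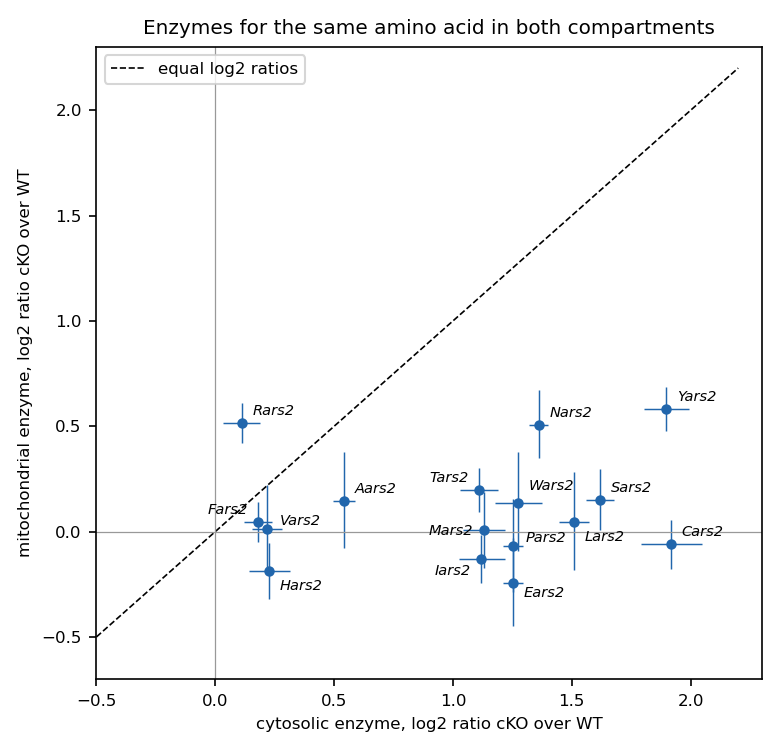
Each point is 1 mitochondrial synthetase, placed by the log2 ratio of the cytosolic enzyme for the same amino acid (horizontal) and by its own log2 ratio (vertical), with 95% counting intervals and a dashed line of equal ratios. Of the 16 points 15 lie below the line, and Rars2 lies above it.

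Gars and Kars, which serve both compartments, stood on different sides of the limit. Gars was 2.70-fold higher in the cKO library, as given above. Kars was at 62.2 CPM in WT (59.8 to 64.6) and 76.7 CPM in cKO (74.9 to 78.5), a log2 ratio of 0.30 (0.24 to 0.37), which placed it with Dars, Rars and Qars among the members of the multisynthetase complex within the limit.

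Wars is known to be induced by interferon as well as by ATF4, and the Mx1 promoter of the recombinase responds to interferon. It was at 23.3 CPM in WT (21.9 to 24.8) and 56.4 CPM in cKO (54.8 to 58.0), a log2 ratio of 1.27 (1.17 to 1.37). Of 12 interferon response genes, 8 were at 5 CPM or more. None of the 8 was higher (6.86% of all tested genes were) and Oas1a was lower at -0.72 (13.9% were), shares near those of all genes. Their median was 0.14, with Bst2 the highest at 0.40.

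Other genes of tRNA charging were examined beside the members, among them subunits of the mitochondrial amidotransferase that completes glutaminyl-tRNA, editing and recycling enzymes, the tRNA exporter and the elongation factor that carries charged tRNA. None of the 13 at 5 CPM or more was lower, and their median was 0.23. Xpot, the exporter, had the highest ratio (19.9 and 38.8 CPM, log2 0.96).

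In a list of 20 integrated stress response genes, 19 were higher in the cKO library and 1 was lower, against 6.86% and 13.9% of all tested genes, with a median log2 ratio of 2.48. Trib3, Chac1, Sesn2, Slc7a11, Atf5, Stc2 and Pycr1 were under 5 CPM in WT and passed the minimum only through the cKO library. The top 2 ratios, 6.77 for Stc2 (5.82 to 8.18) and 6.73 for Chac1 (5.79 to 8.15), each rested on 7 WT UMIs and cannot be ranked apart, and Atf3 was the lower gene at -2.76. The list was chosen with earlier results of these data known, so its direction is a description.

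Cells were then gated, to see whether the ratios were also found among cells of 1 marker class. A gate took cells with at least 2 markers of a class, and more than of any other class, after each cell was thinned to 2000 UMIs. The stem cell gate held 273 WT and 868 cKO cells, the lymphoid primed gate 654 and 278, the granulocyte-monocyte gate 4127 and 749, and the megakaryocyte-erythroid gate 209 and 70. The sizes of the gates are not compared, because their markers differed between the libraries, and the markers differed inside the gates too: the summed granulocyte-monocyte markers in their own gate were 10245 CPM in WT against 2904 CPM in cKO, and the neutrophil markers there were 1245 and 34.9 CPM. In the stem cell gate the stem cell markers summed to 1131 CPM in WT against 725 CPM in cKO, and the granulocyte-monocyte markers to 1057 against 502 CPM, so that in WT both lists stood at about the same level. Each gate's own markers were lower in cKO than in WT in all 4 gates, and the part of these differences in the ratios was not tested.

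The difference in cytosolic synthetases was present in all 4 gates. In the stem cell gate 15 of 20 were past 1.5-fold (median 0.99), against 9.16% of genes. In the lymphoid primed gate 13 were (median 1.11), against 9.84%. In the granulocyte-monocyte gate 12 were (median 1.18), against 6.84%, and in the megakaryocyte-erythroid gate 13 were (median 1.001), against 13.6%. Their summed level in WT cells ran from 997 CPM (935 to 1063) in the stem cell gate to 1241 CPM (1228 to 1255) in the granulocyte-monocyte gate. In cKO cells it ran from 1882 CPM (1850 to 1914) to 2496 CPM (2465 to 2528) in the same gates. Every cKO gate was thus above every WT gate. Among the 2338 WT and 6104 cKO cells in no gate, 13 cytosolic synthetases were past the limit upward (median 1.19), against 7.32% of genes.

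The ratios of single genes varied between gates, but the intervals of Cars, Wars, Farsa and Hars overlapped those in other gates. Cars had its highest ratio in the stem cell gate (7.37 CPM in WT against 44.9 CPM in cKO, log2 2.51, 1.55 to 3.93), where the WT value rested on 7 UMIs. Wars had its lowest there (26.3 and 41.9 CPM, log2 0.65, 0.08 to 1.32), against 1.32 (1.16 to 1.48) in the granulocyte-monocyte gate. Gars was likewise at 0.90 (0.47 to 1.40) in the stem cell gate and 1.60 (1.49 to 1.71) in the granulocyte-monocyte gate, without overlap of these intervals. Farsa, within the limit over all cells, was at 0.72 (0.30 to 1.19) in the stem cell gate and 0.69 (0.20 to 1.18) in the megakaryocyte-erythroid gate. Hars, also within it over all cells, was at 0.63 (0.05 to 1.32) in the stem cell gate. Qars had log2 ratios from 0.10 to 0.14 in 3 gates and of -0.75 in the megakaryocyte-erythroid gate, on 42 and 19 UMIs and with an interval that spanned 0 (-1.63 to 0.04). It was the only cytosolic synthetase past the limit downward in a gate, and 20.4% of genes were in that gate.

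The mitochondrial medians in the 4 gates were 0.10, 0.26, 0.09 and 0.19, in the order given above. Past 1.5-fold upward were 5 genes in the stem cell gate (against 9.16% of all genes), 5 in the lymphoid primed gate (9.84%), 1 in the granulocyte-monocyte gate (6.84%) and 5 of the 15 that passed the minimum in the megakaryocyte-erythroid gate (13.6%). The single gene in the granulocyte-monocyte gate is no more than the share of all genes gives. Aars2, Ears2 and Wars2 in the stem cell gate, Aars2 and Vars2 in the lymphoid primed gate and Ears2 in the megakaryocyte-erythroid gate passed the minimum only through the cKO cells, on 3 to 13 WT UMIs, so these counts are a description of levels near the minimum. The intervals of most were wide. Downward, 1 gene passed in the stem cell gate (Hars2), where 20.5% of genes did, and 1 in the granulocyte-monocyte gate (Lars2), where 15.5% did. In the stem cell gate only 1 of the 16 intervals lay above 0, that of Yars2 (16.8 and 32.0 CPM, log2 0.89, 0.20 to 1.76), and only 1 lay below it, that of Hars2 (24.2 and 14.6 CPM, log2 -0.75, -1.39 to -0.01). In the granulocyte-monocyte gate 4 mitochondrial intervals lay above 0 and 2 below it, those of Hars2 at -0.50 (-0.81 to -0.21) and Lars2 at -0.76 (-1.37 to -0.23). No member had intervals above 0 in 1 of the 4 gates and below 0 in another. The scaffold medians were 0.26, 0.53, 0.55 and 0.39.

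**Figure D4:**
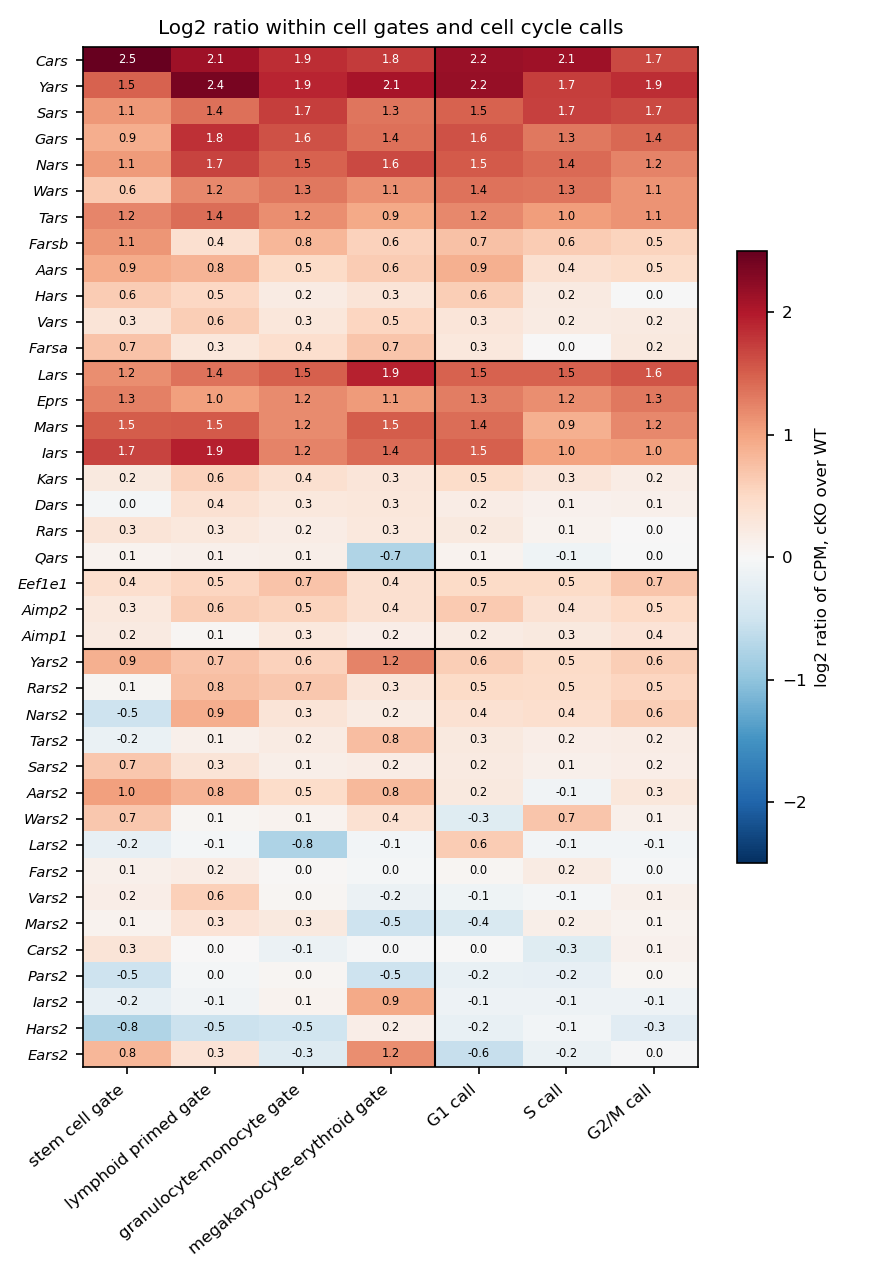
Rows are the 39 members and columns are the 4 marker gates and the 3 cell cycle calls, coloured and labelled by the log2 ratio of CPM, cKO over WT. The upper rows of both cytosolic blocks are red in every column, with Cars at 2.51 in the stem cell gate, and the mitochondrial block mixes pale red and pale blue.

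The ratios were also found within each call of the cell cycle, which was made from S and G2/M genes on the thinned cells. Past 1.5-fold were 14 of 20 cytosolic synthetases in cells called G1 (median 1.24, against 7.38% of genes), 12 in S (median 0.95, against 6.95%) and 11 in G2/M (median 1.08, against 8.53%). Aars followed the call: it was at 0.90 (0.79 to 1.01) in G1 cells, 0.39 (0.32 to 0.47) in S and 0.47 (0.39 to 0.54) in G2/M, and its WT level was 82.4 CPM in G1 and 144 CPM in S. The mitochondrial medians were 0.02, 0.03 and 0.11. Among cells both in the stem cell gate and called G1, 176 in WT and 429 in cKO, 15 of 20 cytosolic synthetases were past the limit upward (median 0.84, against 11.6% of genes). Of the 15 mitochondrial genes that passed the minimum there, 2 were past it upward (Aars2 and Sars2, on 1 and 2 WT UMIs), a share near that of all genes, and 1 was past it downward, against 22.7% of genes.

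To see how the difference was spread over cells, all were brought down to 2000 UMIs by thinning. Too shallow for this were 196 cells of WT and 105 of cKO. The median count of cytosolic synthetase UMIs was 2 in the 7949 WT cells and 4 in the 8376 cKO cells, with means of 2.17 and 4.27. No such UMI was found in 13.1% of WT cells and 2.91% of cKO cells, and 10 or more were found in 0.0629% and 2.77%. The 90th percentile was 4 UMIs in WT and 7 in cKO, and the 10th percentile was 0 and 1, so the low and the high end of the distribution both stood higher in cKO. For mitochondrial synthetases the means were 0.458 and 0.521, and 63.7% of WT and 59.4% of cKO cells had none. For scaffold genes the means were 0.465 and 0.622.

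**Figure D5:**
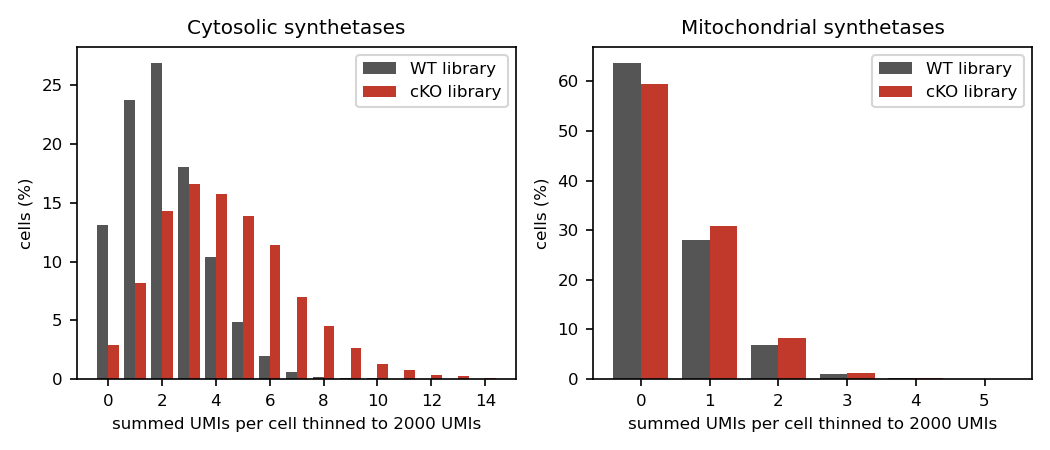
Bars give the percentage of cells with each summed number of UMIs after thinning to 2000 UMIs, for cytosolic synthetases (left) and mitochondrial synthetases (right), in grey for the WT and in red for the cKO library. The cytosolic bars are shifted to the right in cKO, from a median of 2 to a median of 4, and the mitochondrial bars nearly coincide.

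Single genes showed the same at this depth. Nars was detected in 21.5% of WT (20.7 to 22.5) and 46.1% of cKO cells (45.0 to 47.2), Yars in 4.38% (3.94 to 4.85) and 15.8% (15.0 to 16.6), and Cars in 2.13% (1.82 to 2.47) and 9.16% (8.55 to 9.80), with exact Clopper-Pearson intervals. Qars was detected in 5.91% (5.40 to 6.45) and 6.11% (5.61 to 6.65). Without thinning, at the depths of the libraries, the shares of Cars were 6.22% and 37.6% and those of Qars 13.6% and 25.2%, both higher in the deeper library. Every cell type needs synthetases, so no class of cells lacking them was there to give a background of free RNA.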

How the data were processed

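Counts were deposited by the authors as raw UMI counts per gene and barcode, which the file headers credit to Cell Ranger 6.0.0, from 10x Genomics 3′ libraries mapped to GRCm38. The labels name version 2 of the kit and the methods version 3, and the annotation release is not given in the sources used here. Groups follow the labelled genotype. Barcodes were held to the study's own limits (over 200 genes, under 4000 in WT and 4500 in cKO, under 10% and 5% mitochondrial UMIs, under 5% hemoglobin UMIs), which left 8763 and 9151 barcodes. Likely doublets (618 and 670) were then removed, scored against simulated pairs among 50 neighbours in 20 principal components of 1500 variable genes and cut at 0.8% per 1000 barcodes. The kept cells held 42089289 and 87407605 UMIs.

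UMIs were summed per library and scaled to CPM. Ratios used 0.5 prior counts, with exact conditional binomial intervals, exact Poisson intervals for CPM and Clopper-Pearson intervals for shares (scipy 1.17.1). No test was run, since each genotype is 1 library. Calls needed a fold of 1.5 and 5 CPM in a library. Full values were given for the 5 highest and 5 lowest members, for Gars, Kars and Wars and for the scaffold genes. Cell cycle calls used scanpy 1.11.5, TMM factors edgeR 4.0.16 and R 4.3.3. Gene positions came from GENCODE M21 by gene ID. Shared sequence was searched as 40-base windows in the last 500 bases of transcripts. The marker Trbc1 was not found. The code was tested on simulated counts. The members, lists, markers and motif were chosen with earlier results of these data known. Other scalings, cell filters, thinning, priors and limits were tried. Some genes and sequences are not reported here.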

Additional observations from a re-analysis of the deposited data

How the results depend on the processing

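The cytosolic count of genes past 1.5-fold stayed between 12 and 15 of 20 over the alternatives that kept this limit (11 genes were past 2-fold), and the mitochondrial median between 0.02 and 0.14. The cell sets among these alternatives were the stem cell gate, cells called G1 and the same mix of gates, so the other gates and calls are not covered. Over these 11 other scalings, filters and cell sets, 12 cytosolic genes were past the limit every time, Cars, Eprs, Farsb, Gars, Iars, Lars, Mars, Nars, Sars, Tars, Wars and Yars. Another 13 members were within it every time by their ratio: Dars, Kars, Qars, Rars, Vars, Cars2, Fars2, Iars2, Mars2, Pars2, Tars2, Vars2 and Aimp1. In the cell sets not covered this did not always hold: Farsb was at 0.40 in the lymphoid primed gate, where Vars was at 0.61 and Vars2 at 0.60, and in the megakaryocyte-erythroid gate Farsb was at 0.57, Qars at -0.75, Iars2 at 0.95 and Tars2 at 0.76. In cells called G2/M, 11 of 20 cytosolic genes were past the limit, so not all of the 12 named above were. Over the 11 alternatives the other 14 members crossed the limit at least once, and 13 members changed sign, among them Qars (from -0.08 to 0.10) and Dars (from -0.05 to 0.24). With the edgeR TMM factor, or with totals free of mitochondrial and ribosomal protein genes, the medians were 1.21 for cytosolic genes, 1.29 outside and 0.81 inside the multisynthetase complex and 0.59 for scaffold genes, and 3 mitochondrial and 2 scaffold genes passed the limit. With median-of-ratios size factors 1 mitochondrial and 1 scaffold gene passed it, and the scaffold median was 0.56. In G1 cells the medians were 1.24 for cytosolic genes and 1.28 outside and 0.87 inside the complex, with 2 mitochondrial genes and 1 scaffold gene past the limit. In the stem cell gate the medians were 0.99 for cytosolic genes, 0.99 outside the complex and 0.26 for scaffold genes, with 5 mitochondrial genes past the limit. With the same mix of gates in both libraries they were 1.22, 1.28 outside and 0.85 inside the complex and 0.58 for scaffold genes, with 1 mitochondrial gene and 1 scaffold gene past the limit. With each cell scaled to its own total, with all deposited barcodes, with no doublet removal and with cells thinned to 2000 UMIs, 1 mitochondrial gene passed it. Lars2, at 0.05 over all cells, was at 0.64 both with thinned cells and in G1 cells, and at -0.20 in the stem cell gate. The causes of these shifts were not tested. No paired analysis was possible because each genotype is 1 library. For the same reason no library could be left out. The fewest WT UMIs of any member were the 216 of Wars2.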
